A study of Mus musculus with 20 samples.

Results

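The Rab genes encode small GTPases that recruit motors, tethers and coat proteins to membranes, each Rab marking its own compartment. A Rab is prenylated with the help of an escort protein, loaded with GTP by an exchange factor, binds its effectors and is turned off by a GTPase-activating protein. In the testis, vesicles from the Golgi and from endosomes are known to build the acrosome, the secretory granule that forms over the nucleus of the round spermatid. Members were all genes whose symbol in the array annotation begins with Rab or Rabl followed by a number, with at most a letter and a further digit after Rab and its number. The rule found 62 genes, with 140 probe sets, among 18193 genes of a single symbol, and each gene was read from its probe set of highest mean.

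The question was how the RNA of these genes differs between fractions from before meiosis to the haploid cell. RNA came from germ cells of adult C57BL/6 x DBA/2J F1 males, 10 to 16 weeks old by the labels, sorted by fluorescence of a Hoechst DNA stain and hybridised to 20 Affymetrix arrays. The fractions, which had no other treatment, were spermatogonia (4 arrays), pre-leptotene (3), leptotene/zygotene (3), early-pachytene (1), mid-pachytene (2), late-pachytene (1) and diplotene spermatocytes (2), and round spermatids (4). Each array held a pool of cells from several sorts, usually with several testes in a sort, so p-values measure the spread between pools. A signal of a sorted fraction is relative to the array's other RNAs, and fewer cells with an RNA cannot be told apart from less RNA in each cell. Of each array's 45037 probe sets, between 34.6% and 39.8% had a log2 signal of 5 or more. All levels below are log2 GC-RMA signals, differences are on the same scale, and values under 5 lie near the background, where differences are compressed.

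The arrays carried signals of other cells that bear on these values. Summed signals of the 7 spermatogonial markers were 124 to 1059 in round spermatids and 22381 to 34711 in spermatogonia. The 6 spermatid markers summed to 75181 to 112060 in round spermatids and to 42591 to 166035 in spermatogonia. There, transcripts of the protamine and transition protein genes (Prm1, Prm2, Tnp1, Tnp2) lay between 12.45 and 15.44. The same 6 summed to 24099 to 36853 in pre-leptotene, 27073 to 43929 in leptotene/zygotene and 51711 to 52862 in mid-pachytene cells. The 6 macrophage markers summed to 56.4 to 78.5 in round spermatids, 36.2 to 41.9 in leptotene/zygotene cells, 33.3 to 774 in pre-leptotene cells and 845 to 2459 in spermatogonia. All 6 stayed under 5 in every array from leptotene/zygotene on. Of the 7 Sertoli cell markers, Amh, Fshr, Gata4 and Sox9 stayed under 5 on every array. Rhox5 passed 5 on the first mid-pachytene (5.44), diplotene (5.64) and round spermatid (5.001) arrays. Wt1 passed 5 on arrays of several fractions, among them these (6.04, 5.59 and 6.13) and the fourth spermatogonia array (6.30). Clu made most of the list's sum, which was 438 to 5357 in round spermatids, 4617 to 6352 in leptotene/zygotene cells and 2205 to 3422 in spermatogonia. Of the endothelial markers Pecam1, Cdh5 and Kdr, Cdh5 alone passed 5, at 5.46 on the fourth spermatogonia array. The 3 peritubular markers summed to 334 to 868 in round spermatids, 236 to 239 in diplotene, 1190 to 1603 in mid-pachytene and 387 to 1463 in leptotene/zygotene cells and 596 to 2643 in spermatogonia. In the fit 1 of the 2 tested was lower in diplotene than in mid-pachytene cells, and 1 was lower in round spermatids than in spermatogonia. The 4 Leydig cell markers summed to 76.8 to 338 in round spermatids, 237 to 317 in leptotene/zygotene cells and 74.2 to 232 in spermatogonia. Of 3 tested, 1 was higher in round spermatids than in spermatogonia. The part of these other cells in the changes of Rab genes was not tested.

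Of the 62 members, 46 had a level of at least 5 in at least 2 arrays and were tested. The other 16 (Rab3b, Rab3c, Rab7b, Rab9b, Rab12, Rab17, Rab19, Rab25, Rab27b, Rab32, Rab37, Rab38, Rab39, Rab39b, Rab40b and Rab44) stayed under 5 on all 20 arrays. They include the epithelial Rab17 and Rab25, and Rab32 and Rab38, which sort cargo to melanosomes. In limma's moderated F-test over the 8 fractions, 36 of the 46 tested members passed an adjusted p of 0.05, or 78.3%, beside 84.3% of 11952 genes tested. The members that varied were thus no larger a share than among all genes, and the account below is of which Rab genes moved, when and in which direction.

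**Figure D1:**
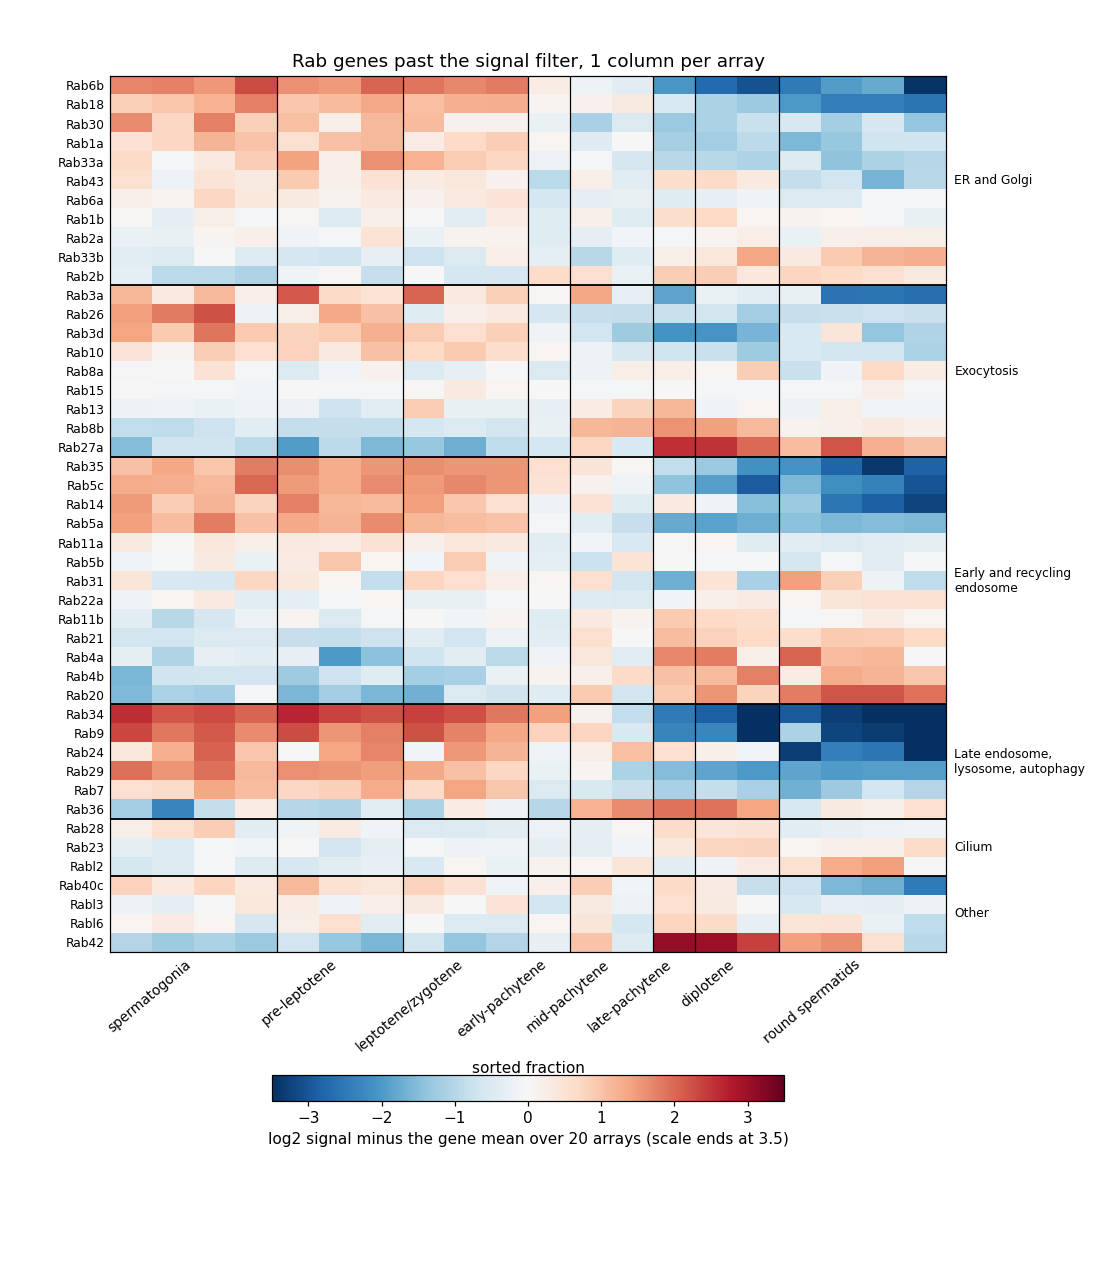
Log2 signal of the 46 tested Rab genes on each of the 20 arrays, minus the gene's mean over the arrays, with rows grouped by the textbook site of action and columns grouped by sorted fraction in order of development. Rab34, Rab9, Rab5c, Rab6b and Rab35 are high up to leptotene/zygotene cells and low from late-pachytene cells on, whereas Rab27a, Rab42, Rab20 and Rab4b are low early and high late.

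Promoters of selected members are shown. Their letters could be searched for the cyclic AMP response element, the site of CREM, an activator known from mouse round spermatids. Rab20 had the largest fitted rise in round spermatids and Rab21 was the member most like it over the arrays. Rab5c was most like Rab34, the member with the largest fitted fall, and Rab5a was chosen because it was the falling member with the full site. Both mark early endosomes. The windows are from RefSeq (GRCm38.p6), run from 250 bases before to 50 bases after the transcription start and are printed 5′ to 3′ on the strand of the gene. Capitals mark the core TGACG on either strand and the full palindrome TGACGTCA, which holds the core on both strands.
Rab20, chr8:11478591-11478890, minus strand: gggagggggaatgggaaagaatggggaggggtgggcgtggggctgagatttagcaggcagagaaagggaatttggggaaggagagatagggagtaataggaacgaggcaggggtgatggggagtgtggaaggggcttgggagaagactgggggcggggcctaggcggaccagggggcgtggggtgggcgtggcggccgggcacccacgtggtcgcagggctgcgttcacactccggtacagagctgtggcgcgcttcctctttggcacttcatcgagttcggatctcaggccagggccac
Rab21, chr10:115315542-115315841, minus strand: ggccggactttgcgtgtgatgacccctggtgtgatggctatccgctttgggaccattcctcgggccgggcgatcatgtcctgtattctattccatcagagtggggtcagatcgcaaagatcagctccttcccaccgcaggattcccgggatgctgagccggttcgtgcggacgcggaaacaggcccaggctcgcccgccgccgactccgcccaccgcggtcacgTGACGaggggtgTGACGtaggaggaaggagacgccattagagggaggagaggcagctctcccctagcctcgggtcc
Rab5c, chr11:100738166-100738465, minus strand: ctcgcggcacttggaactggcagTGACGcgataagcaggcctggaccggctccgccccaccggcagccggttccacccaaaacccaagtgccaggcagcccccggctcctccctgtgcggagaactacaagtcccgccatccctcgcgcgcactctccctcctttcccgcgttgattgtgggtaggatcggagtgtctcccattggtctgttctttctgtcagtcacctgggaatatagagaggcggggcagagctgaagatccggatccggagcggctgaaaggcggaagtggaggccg
Rab5a, chr17:53478984-53479283, plus strand: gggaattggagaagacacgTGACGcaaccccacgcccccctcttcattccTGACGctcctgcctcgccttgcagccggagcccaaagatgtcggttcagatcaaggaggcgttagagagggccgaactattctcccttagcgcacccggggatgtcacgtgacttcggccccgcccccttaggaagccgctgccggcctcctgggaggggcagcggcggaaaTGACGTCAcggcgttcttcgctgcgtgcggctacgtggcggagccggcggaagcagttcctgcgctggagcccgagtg

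Windows were found for 51 of the 62 members. The core was in 4 of 13 windows of the members that were higher in round spermatids than in spermatogonia, in 13 of 26 windows of those that were lower, and in 20.8% of all 32851 windows. The full site was in 0 of the 13, in 1 of the 26 (that of Rab5a) and in 1.79% of all windows. A gene with several start sites has several windows, and a match of letters is not a bound site.

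Leptotene/zygotene cells were set against spermatogonia to see whether Rab genes moved on entry into meiosis. With limma and Benjamini-Hochberg adjustment 0 of 46 members were called, beside 0.937% of all genes higher and 1.0% lower. Without adjustment 5 members had p under 0.05 (Rab11b, Rab26, Rab28, Rab29 and Rab30). The median change of the members was 0.01, beside 0.04 for all genes. When the fourth spermatogonia array was left out, 2 members were called, both lower.

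Mid-pachytene cells, set against leptotene/zygotene cells, showed the first calls. Of 46 members, 12 were lower and 5 higher (37.0% in all), beside 17.1% of all genes lower and 16.2% higher, and the median change of the members was -0.32, beside -0.11 for all genes. The falls were spread over endosomes (Rab5a, Rab5c, Rab7, Rab29, Rab34 and Rab35), the Golgi (Rab6b, Rab18, Rab30 and Rab33a) and exocytosis (Rab3d and Rab10). The count was 8, 4 lower and 4 higher, without the second mid-pachytene array. It was 11 without the first leptotene/zygotene array and 9 when only the arrays of these fractions were fitted. Rab30 lay near the background, at 3.31 and 3.93 in mid-pachytene cells, against 5.55, 4.60 and 4.60 in leptotene/zygotene cells. The probe set read for Rab10 changed by -1.12, while its other probe sets, above 5 on every array, changed by -0.005 and -0.526.

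Rab34, which positions lysosomes and is needed for primary cilia, was at 7.01 and 6.00 in mid-pachytene cells, against 9.26, 9.12 and 8.72 in leptotene/zygotene cells. It had the largest fall, with a change of -2.53 (SE 0.41, adjusted p = 0.000621, limma). Rab6b, a Golgi Rab known best from neurons, was at 6.80 and 6.62 in mid-pachytene cells, against 8.85, 8.68 and 8.80 in leptotene/zygotene cells (change -2.07, SE 0.40, adjusted p = 0.00168). The single early-pachytene array already lay between these fractions, at 8.29 for Rab34 and 7.25 for Rab6b. Rab5a, which drives fusion of early endosomes, was at 9.64 and 9.23 in mid-pachytene cells and at 11.19, 11.12 and 11.04 in leptotene/zygotene cells (change -1.68, adjusted p = 0.000514). Its fall was seen on every array, and its relative Rab5c fell alongside it, by 1.57. Rab3d, a Rab of secretory granules, was at 3.44 and 2.88 in mid-pachytene cells, against 5.01, 4.72 and 4.96 in leptotene/zygotene cells (change -1.73, adjusted p = 0.00876). All but 1 of these Rab3d values lie under 5, and the call was lost with values under 5 set to 5 (adjusted p = 1) and without the second mid-pachytene array (adjusted p = 0.119).

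Among the 5 that rose, Rab8b, which carries post-Golgi vesicles to the plasma membrane, was the most even. It stood at 10.30 and 10.32 in mid-pachytene cells, against 8.53, 8.66 and 8.49 in leptotene/zygotene cells, a 3.37-fold difference (change 1.75, SE 0.23, adjusted p = 0.000142). Rab36, a late endosomal relative of Rab34, was at 7.38 and 7.80 in mid-pachytene cells and at 5.04, 6.42 and 5.98 in leptotene/zygotene cells (change 1.77, adjusted p = 0.0307), so that this pair moved in opposite directions. Rab27a, which tethers secretory lysosomes and melanosomes for release, was at 6.61 and 5.34 in mid-pachytene cells, against 4.55, 4.16 and 4.98 in leptotene/zygotene cells (change 1.41, adjusted p = 0.0307), but the mean of its probe sets changed by 0.54 (adjusted p = 0.153). Rab4b, of the fast recycling route, was at 9.32 and 9.84 in mid-pachytene cells, against 7.97, 8.01 and 8.92 in leptotene/zygotene cells (change 1.28, adjusted p = 0.0316). Rab21, an endosomal Rab bound by integrins, rose by 0.71 (adjusted p = 0.0376). Single arrays decided the calls of Rab36, Rab27a, Rab4b and Rab21. Without the first leptotene/zygotene array, Rab8b alone of the 5 was still called. Without the second mid-pachytene array the change of Rab36 was 1.56 (adjusted p = 0.21) and that of Rab4b 1.02 (adjusted p = 0.253), and without the first that of Rab36 was 1.98 (adjusted p = 0.0629) and that of Rab27a 0.78 (adjusted p = 0.297). Without the first leptotene/zygotene array the adjusted p was 0.115 for Rab36, 0.0671 for Rab27a and 0.0996 for Rab4b, and without the second 0.1 for Rab27a and 0.0952 for Rab4b.

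**Figure D2:**
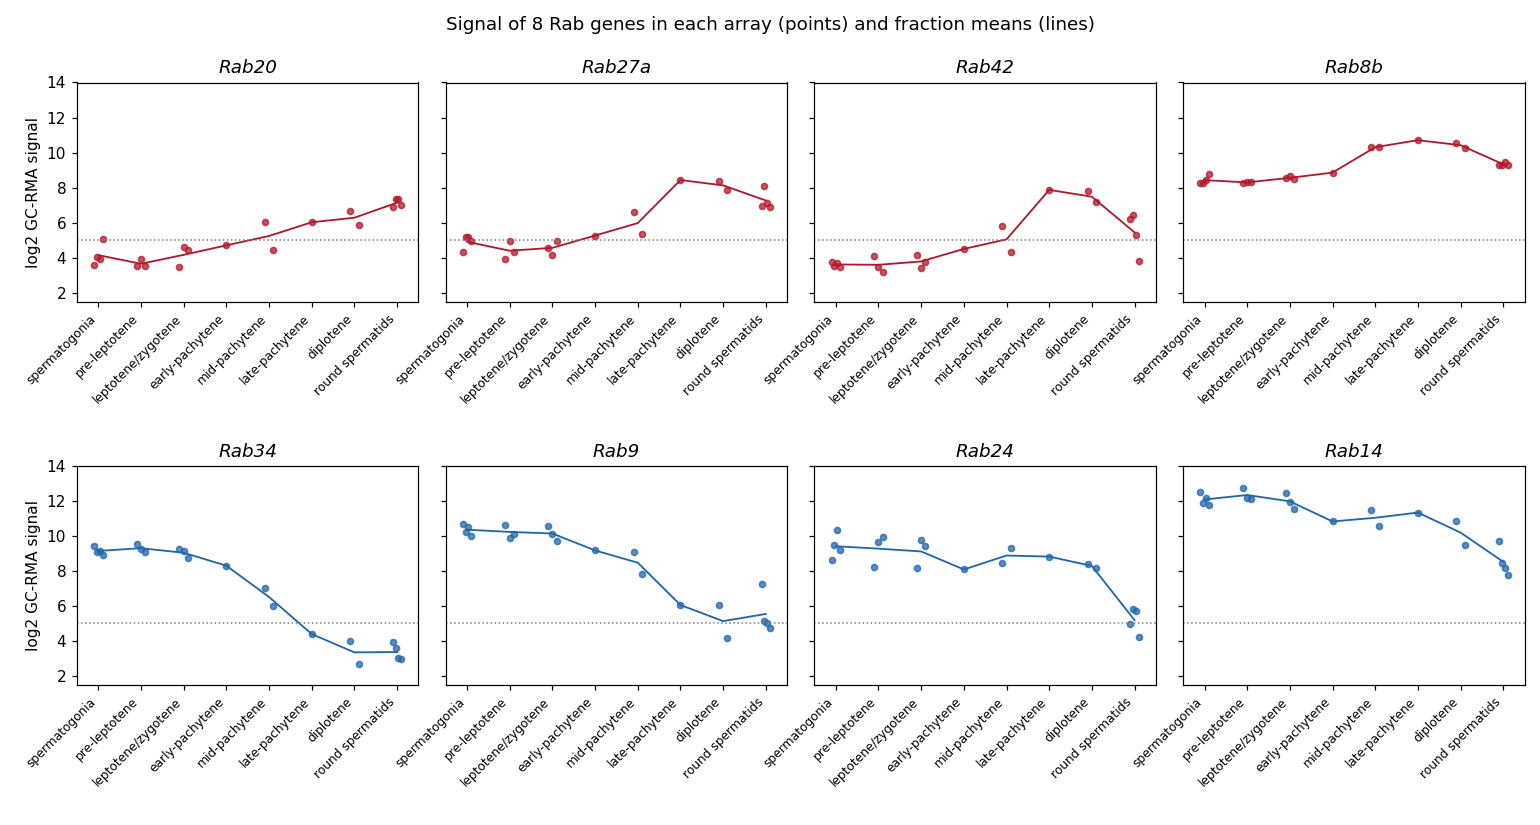
Log2 signal (vertical axis) of 8 Rab genes on each array (points) in the 8 sorted fractions in order of development, with fraction means joined by lines and a dotted line at 5. Rab8b steps up between early- and mid-pachytene cells, Rab20 climbs up to round spermatids, Rab34 and Rab9 fall through prophase, and Rab24 drops between diplotene cells, at 8.42 and 8.14, and round spermatids, at 4.24 to 5.85.

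Diplotene cells against mid-pachytene cells continued the falls and added late rises. Of 46 members, 8 were lower and 4 higher (26.1%), beside 15.3% of all genes lower and 7.11% higher. The median change was 0.04 for the members and -0.02 for all genes. Of the 8 that were lower, all but Rab9 had also been called lower in mid-pachytene cells, a comparison that shares the mid-pachytene arrays. With 2 arrays in each fraction the count was 7 without the first mid-pachytene array, 6 without the second diplotene array and 1 when these 4 arrays were fitted alone.

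Rab9, an X-linked gene whose product returns mannose 6-phosphate receptors from late endosomes to the Golgi, was at 6.07 and 4.19 in diplotene cells and at 9.10 and 7.83 in mid-pachytene cells. Its change was -3.33 (SE 0.72, adjusted p = 0.00431), with an adjusted p of 0.0701 without the first mid-pachytene array and 0.0823 without the second diplotene array. Rab34 was at 4.02 and 2.68 in diplotene cells, against 7.01 and 6.00 in mid-pachytene cells (change -3.16, adjusted p = 0.000232). Rab6b was at 4.28 and 3.95 in diplotene cells, against 6.80 and 6.62 in mid-pachytene cells (change -2.60, adjusted p = 0.00076). Rab34 and Rab6b were under 5 on both diplotene arrays and Rab9 on 1 of them. Rab5c was at 7.37 and 6.39 in diplotene cells, against 9.46 and 9.15 in mid-pachytene cells, and remained above 5 (change -2.43, adjusted p = 0.0011).

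Of the 4 that rose, Rab42 was at 7.78 and 7.18 in diplotene cells and at 5.78 and 4.31 in mid-pachytene cells (change 2.43, SE 0.67, adjusted p = 0.0178). Rab27a was at 8.40 and 7.86 in diplotene cells, against 6.61 and 5.34 in mid-pachytene cells (change 2.15, SE 0.50, adjusted p = 0.00713). The late-pachytene array already stood at 7.87 for Rab42 and 8.43 for Rab27a, close to the diplotene arrays. Rab33b, a Golgi Rab that also binds an autophagy protein complex, was at 8.64 and 9.60 in diplotene cells, against 7.28 and 7.81 in mid-pachytene cells (change 1.58, adjusted p = 0.0136). Rab23, a regulator of Hedgehog signalling, was at 9.67 and 9.69 in diplotene cells and at 8.60 and 8.80 in mid-pachytene cells (change 0.98, adjusted p = 0.0256). Each of these 4 calls was lost without single arrays. The adjusted p without the second mid-pachytene, the first diplotene or the second diplotene array was 0.161, 0.102 and 0.0557 for Rab42. It was 0.084 without the second mid-pachytene and 0.0546 without the first diplotene array for Rab27a, 0.131 without the first mid-pachytene and 0.176 without the second diplotene array for Rab33b, and 0.0535 to 0.154 without any 1 of the 4 arrays for Rab23. Within the array projects that held both fractions (the number 4 or 6 in the study's own array names) all 12 called members kept their direction, with a difference of 2.00 and 2.87 for Rab42. These projects pair the same 4 arrays on which the calls were made, so the differences are no further data.

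Round spermatids against diplotene cells ask which Rab genes moved across the meiotic divisions into the cells that form the acrosome, and nearly all called members fell. Of 46 members 8 were lower and 1 higher (19.6%), beside 14.2% of all genes lower and 13.5% higher. The median change was -0.07, beside -0.05 for all genes. The arrays of the fractions overlapped for Rab14, Rab35 and Rab40c. Without the first diplotene array 2 members were called, and with array project as a random block 14, of which 12 were lower.

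Rab24, an unusual Rab linked to autophagy, was at 4.94, 5.85, 5.72 and 4.24 in round spermatids, against 8.42 and 8.14 in diplotene cells. Its change was -3.09 (SE 0.59, adjusted p = 0.00142), and within the array projects it was -3.47 and -2.42. Up to diplotene its level had been 8.08 to 10.31 on all arrays, so the step to round spermatids lay below all of these arrays. Rab42 was at 6.24, 6.42, 5.32 and 3.81 in round spermatids, against 7.78 and 7.18 in diplotene cells (change -2.03, adjusted p = 0.0173), and its rise in late meiosis was thus partly undone. Rab43, a Golgi Rab, was at 5.44, 5.62, 4.65 and 5.31 in round spermatids and at 6.95 and 6.62 in diplotene cells (change -1.53, adjusted p = 0.0027). Rab14, which acts between endosomes and the Golgi, was at 9.69, 8.47, 8.14 and 7.77 in round spermatids, against 10.87 and 9.50 in diplotene cells (change -1.67, adjusted p = 0.0218). With the mean of its probe sets the change of Rab14 was -0.61 (adjusted p = 0.123), and -0.56 (adjusted p = 0.266) without probe sets that may match several transcripts. Without the first diplotene array the change of Rab14 was -0.99 (adjusted p = 0.34), that of Rab42 -1.73 (adjusted p = 0.166) and that of Rab43 -1.37 (adjusted p = 0.0503). The member that was higher, Rab3d, was at 3.59, 4.54, 2.76 and 3.07 in round spermatids and at 2.04 and 2.48 in diplotene cells (change 1.23, adjusted p = 0.0409). All its values were under 5, and with values under 5 set to 5 the change was 0.

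**Figure D3:**
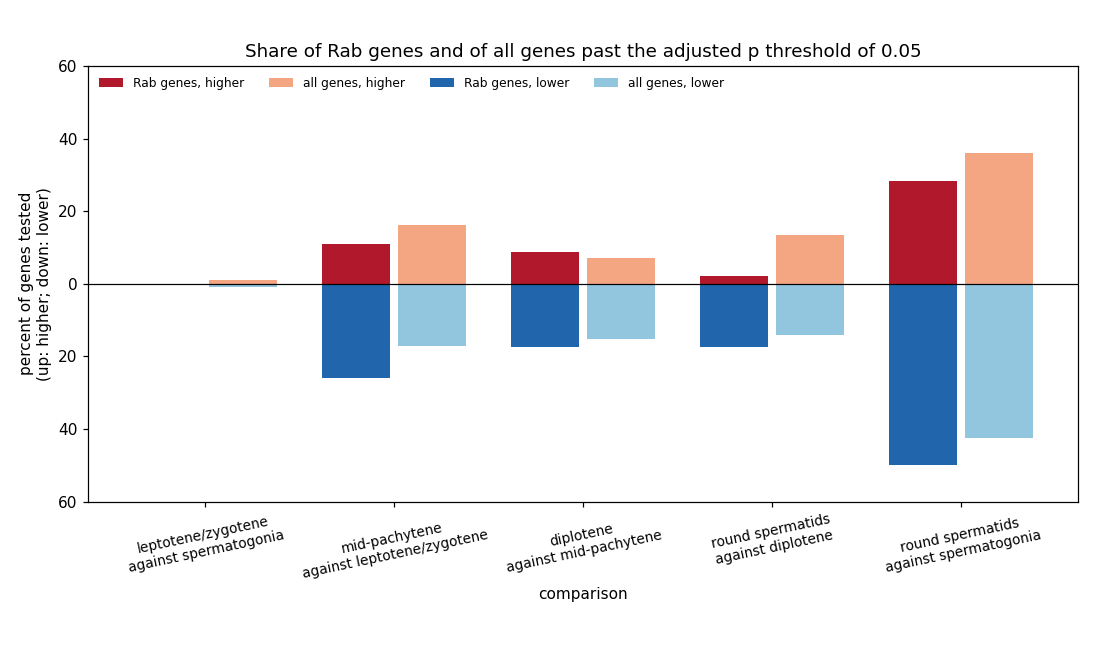
Percent of the 46 tested Rab genes and of the 11952 tested genes that passed the adjusted p threshold in each comparison (vertical axis, upward for higher and downward for lower in the fraction named first). In the mid-pachytene comparison 12 of 46 Rab genes are lower and 5 higher, and in that of round spermatids with diplotene cells 1 is higher. The shares of Rab genes and of all genes were not compared by a test.

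From end to end, round spermatids differed from spermatogonia in most Rab genes, as they did in most of all genes tested. Of 46 members, 23 were lower and 13 higher (78.3%), beside 42.4% of all genes lower and 35.9% higher. The members called were thus no larger a share than among all genes. The median change of the members was -0.43 and that of all genes -0.24. These comparisons share the round spermatid and spermatogonia arrays with those above. Because macrophage markers were present in spermatogonia and near the background in leptotene/zygotene cells, round spermatids were also set against leptotene/zygotene cells, a choice made after seeing the data. There 22 members were lower and 11 higher (71.7%), beside 41.1% of all genes lower and 36.1% higher. Of the 36 members, 31 were called in the same direction in both, a share that was not taken over all genes. Both comparisons use the same round spermatid arrays, and 0 of 46 members were called between leptotene/zygotene cells and spermatogonia. Leptotene/zygotene cells also carried spermatid, Sertoli and Leydig marker signals, and the part of these was not tested.

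Rab34 was at 3.92, 3.57, 3.01 and 2.97 in round spermatids, against 9.45, 9.05, 9.16 and 8.90 in spermatogonia. The fitted change was -5.77 (SE 0.32, adjusted p = 5.91e-10), and -5.92 in its second probe set. Since all round spermatid values lay near the background, the change was also taken with values under 5 set to 5, and was then -4.14. Rab9 was at 7.24, 5.13, 5.03 and 4.76 in round spermatids, against 10.69, 10.19, 10.51 and 10.00 in spermatogonia (change -4.81, SE 0.51, adjusted p = 3.54e-07). Rab6b was at 4.52, 5.03, 5.23 and 3.55 in round spermatids, against 8.70, 8.74, 8.50 and 9.26 in spermatogonia (change -4.22, SE 0.31, adjusted p = 6.87e-09). Rab24 was at 4.94, 5.85, 5.72 and 4.24 in round spermatids and at 8.64, 9.48, 10.31 and 9.18 in spermatogonia (change -4.22, SE 0.48, adjusted p = 8.7e-07). The groups were far apart for all 4 genes, and against leptotene/zygotene cells, where macrophage markers were under 5, the changes were -5.67, -4.59, -4.19 and -3.92. The next largest falls were in Rab35 (-4.06), Rab5c (-3.71), Rab29 (-3.56), Rab14 (-3.56), Rab18 (-3.53), Rab5a (-2.86) and Rab3a (-2.72).

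Rab20, which acts on maturing phagosomes in macrophages, was at 6.90, 7.33, 7.33 and 7.01 in round spermatids, against 3.59, 4.01, 3.94 and 5.04 in spermatogonia. The fitted change was 3.0 (SE 0.38, adjusted p = 2.66e-06), and 2.98 against leptotene/zygotene cells. With values under 5, which most spermatogonia arrays had, set to 5 it was 2.13. The highest spermatogonia value of Rab20, 5.04, was on the fourth array, which also had the highest summed macrophage signal (2459), and without that array the change was 3.30. Rab27a was at 6.96, 8.09, 7.12 and 6.90 in round spermatids and at 4.35, 5.18, 5.18 and 4.93 in spermatogonia (change 2.36, SE 0.36, adjusted p = 1.78e-05). Rab42 was at 6.24, 6.42, 5.32 and 3.81 in round spermatids, against 3.75, 3.53, 3.67 and 3.49 in spermatogonia (change 1.83, SE 0.47, adjusted p = 0.00242). Rab4b was at 9.42, 10.46, 10.33 and 10.08 in round spermatids, against 7.56, 8.45, 8.51 and 8.49 in spermatogonia (change 1.82, SE 0.32, adjusted p = 9.49e-05). Rab20 was thus uniformly higher in round spermatids, while the fourth round spermatid array of Rab42 stood just above the spermatogonia. Over the 20 arrays the members most like Rab20 were Rab21 (Pearson r = 0.914), Rab27a (0.873) and Rab4b (0.822), a description of arrays that share fractions and projects.

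By site of action, of 6 tested late endosomal, lysosomal and autophagic Rab genes 5 were lower and 1 (Rab36) higher in round spermatids than in spermatogonia, with a median change of -3.89, beside 42.4% of all genes lower and 35.9% higher and a median of -0.24. Of 11 tested ER and Golgi members 7 were lower and 2 higher (median -1.30), the higher ones being Rab2b and Rab33b. Early and recycling endosome members split evenly, with 5 lower and 5 higher of 13 tested (median 0.28). Of 9 exocytosis members 4 were lower and 2, Rab27a and Rab8b, higher (median -0.09). Of the 3 members that act in cilia or flagella, Rabl2, whose mutation impairs the sperm tail in mice, and Rab23 were higher and Rab28 was lower. The fall of Rab28 (-0.56, adjusted p = 0.0448) was not seen in its second probe set (0.06) nor within array project 8 (0.26). Against leptotene/zygotene cells none of Rab36, Rab23 and Rab28 passed the limma test. Their changes there were 0.47 (adjusted p = 0.395), 0.41 (adjusted p = 0.103) and 0.21 (adjusted p = 0.473). These lists hold different numbers of genes, and their medians were not compared by a test.

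Several close relatives differed in direction or in whether they passed the test. Rab33a and Rab33b, both of the Golgi, were called in opposite directions in round spermatids, although the call of Rab33a rested on values near the background. X-linked Rab33a was at 3.37, 2.44, 2.74 and 2.85 in round spermatids, against 4.50, 3.77, 4.19 and 4.69 in spermatogonia (change -1.44, adjusted p = 0.000566), all under 5. With values under 5 set to 5 the change was 0.00 (adjusted p = 1), and in mid-pachytene cells -0.02 (adjusted p = 1), so that neither call held. It passed the filter through the 3 arrays on which it exceeded 5. Its levels were 5.26, 4.08 and 5.43 in pre-leptotene cells and 5.07, 4.72 and 4.56 in leptotene/zygotene cells, against which mid-pachytene cells, at 3.76 and 3.24, were lower by 1.28 (adjusted p = 0.0258). Rab33b was at 8.57, 9.17, 9.44 and 9.52 in round spermatids, against 7.84, 7.74, 8.27 and 7.80 in spermatogonia (change 1.26, adjusted p = 0.00103). The other X-linked members, Rab9b and Rab39b, stayed between 2.45 and 3.03 on every array. The fall of Rab9 in mid-pachytene cells, at 9.10 and 7.83 against 10.59, 10.09 and 9.72 in leptotene/zygotene cells, did not pass the test (change -1.67, adjusted p = 0.069), but did with array project as a random block (-2.11, adjusted p = 0.00197).

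**Figure D4:**
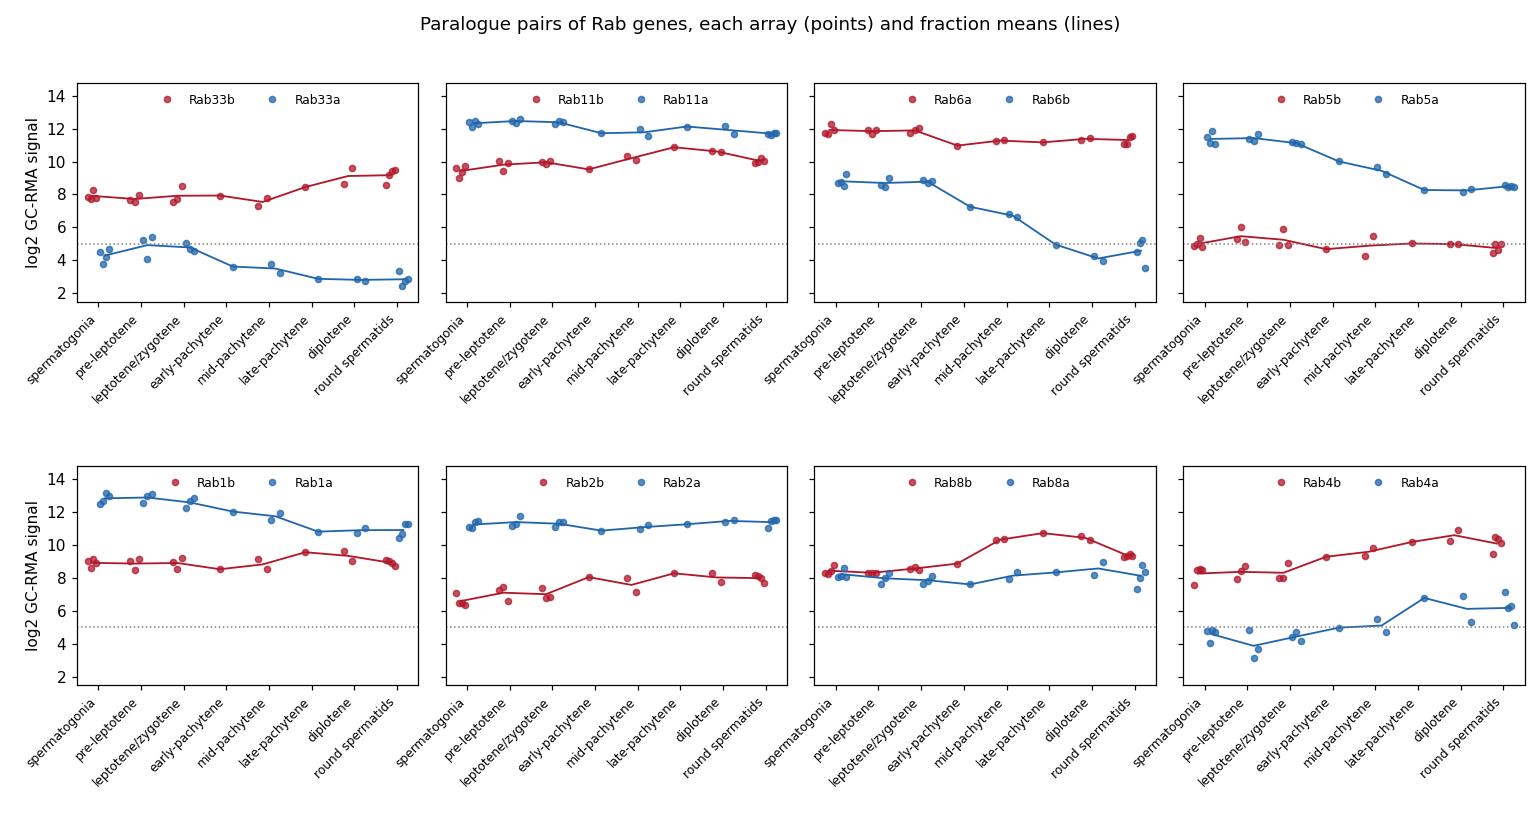
Log2 signal (vertical axis) of 8 pairs of related Rab genes on each array (points) in the 8 sorted fractions in order of development, with fraction means joined by lines and a dotted line at 5. Rab33b and Rab33a part, Rab6b drops while Rab6a falls by 0.61 between round spermatids and spermatogonia, and Rab5a falls while Rab5b stays near 5.

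The recycling Rabs Rab11a and Rab11b were also called in opposite directions, with small changes. Rab11a was at 11.70, 11.59, 11.73 and 11.74 in round spermatids and at 12.40, 12.13, 12.48 and 12.28 in spermatogonia (change -0.63, adjusted p = 0.00581), and its second probe set changed by -3.83. Rab11b was at 9.93, 9.99, 10.23 and 10.03 in round spermatids, against 9.58, 8.99, 9.38 and 9.75 in spermatogonia (change 0.62, adjusted p = 0.0138), with an adjusted p of 0.0534 without the second spermatogonia array. Against leptotene/zygotene cells Rab11b differed by 0.09 (adjusted p = 0.738).

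In other pairs 1 gene moved and its partner did not pass the test. Rab1a, which acts between ER and Golgi, was at 10.40, 10.64, 11.27 and 11.27 in round spermatids, against 12.47, 12.69, 13.16 and 12.96 in spermatogonia (change -1.93, adjusted p = 5.21e-06). Rab1b was at 9.06, 9.01, 8.87 and 8.69 in round spermatids and at 8.99, 8.61, 9.15 and 8.87 in spermatogonia (change 0.00, adjusted p = 0.995). Rab2b, of the same route, was at 8.15, 8.09, 7.96 and 7.70 in round spermatids, against 7.08, 6.46, 6.45 and 6.33 in spermatogonia (change 1.39, adjusted p = 0.0002). Rab2a was at 11.04, 11.46, 11.51 and 11.48 in round spermatids, against 11.06, 11.03, 11.37 and 11.47 in spermatogonia (change 0.14, adjusted p = 0.544), whereas its other bright probe sets changed by -0.72 and -0.51.

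For early endosomes, Rab5a was at 8.60, 8.46, 8.51 and 8.47 in round spermatids, against 11.47, 11.13, 11.83 and 11.06 in spermatogonia (change -2.86, adjusted p = 6.01e-09). Rab5b was at 4.42, 4.97, 4.62 and 4.97 in round spermatids and at 4.89, 4.97, 5.34 and 4.80 in spermatogonia (change -0.26, adjusted p = 0.464), near the background throughout. For exocytosis, Rab8b was at 9.26, 9.30, 9.46 and 9.30 in round spermatids, against 8.27, 8.25, 8.42 and 8.76 in spermatogonia (change 0.90, adjusted p = 0.000239), below its 10.56 and 10.28 in diplotene cells. Rab8a was at 7.33, 7.99, 8.79 and 8.36 in round spermatids, against 8.05, 8.13, 8.61 and 8.07 in spermatogonia (change -0.09, adjusted p = 0.788). Rab6a fell by 0.61 (adjusted p = 0.0123), against the fall of Rab6b by 4.22. Rab4a rose by 1.58 (adjusted p = 0.00506), in the same direction as Rab4b. Rab3a, which acts in the acrosomal exocytosis of sperm, was at 6.82, 4.50, 4.51 and 4.44 in round spermatids, against 8.23, 7.43, 8.20 and 7.32 in spermatogonia (change -2.72, adjusted p = 0.000411), the first round spermatid array standing apart. Without that array, which also had the highest spermatogonial marker sum (1059), the change was -3.31 for Rab3a and -5.37 for Rab9. The probe set read for Rab3a may match several transcripts, and its other probe set, under 5 on every array, changed by -0.31. Rab3b, a relative of Rab3a, was not above 5 on any array.

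Genes that load, turn off or follow Rabs moved in both directions in mid-pachytene cells against leptotene/zygotene cells. Of 7 tested genes for prenylation and escort, 1 was higher and 3 were lower. The escort proteins Chm and Chml changed by -1.60 and -1.37 and the prenyl transferase subunit Rabggta by -0.95, while the prenylated Rab acceptor Rabac1 changed by 2.40. Of 31 exchange factors 9 were higher and 2 lower, led by the Rab5 exchange factor Rin1 (2.23) and the X-linked Rpgr (-2.05). Of 38 GTPase-activating proteins 7 were higher and 4 lower, with Tbc1d32 at 2.06 and Tbc1d8b at -2.67. Of 38 effectors 9 were higher and 6 lower, among them the Golgi protein Tmf1 (2.13) and the Rab11 partner Rab11fip5 (2.12). The Rab3 partners of the active zone of synapses differed in direction, with Rims2 at 2.82 and Rims1 at -2.01. The lists' median changes were -0.92, 0.32, -0.08 and -0.16 in this order, beside -0.11 for all genes. Of all genes, 16.2% were higher and 17.1% lower in this comparison. Of 20 tested acrosome genes, 9 were higher and 0 lower (median 2.23), including the acrosomal protease Acr (3.39), its binding protein Acrbp (3.01) and Dpy19l2 (2.85), which anchors the acrosome.

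In round spermatids against spermatogonia the same lists had 1 higher and 4 lower of 7 escort and prenylation genes, 14 and 7 of 31 exchange factors, 15 and 15 of 38 GTPase-activating proteins and 12 and 14 of 38 effectors. Of all genes, 35.9% were higher and 42.4% lower in this comparison. Chml fell by 3.51 and Chm by 2.47. Rin1 rose by 5.16 and Dennd4b by 3.79, whereas Dennd2c fell by 4.56 and Hps1 by 4.14. Tbc1d9 rose by 4.58 and Tbc1d10b fell by 6.17. Among effectors the motor Myo5b, a partner of Rab11, rose by 4.97 and the related motor Myo5a, a partner of Rab27a, fell by 4.28, while the tether Uso1, a partner of Rab1, fell by 5.46. Of the acrosome genes 16 were higher and 2, Vps54 and Smap2, lower (median 5.40).

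**Figure D5:**
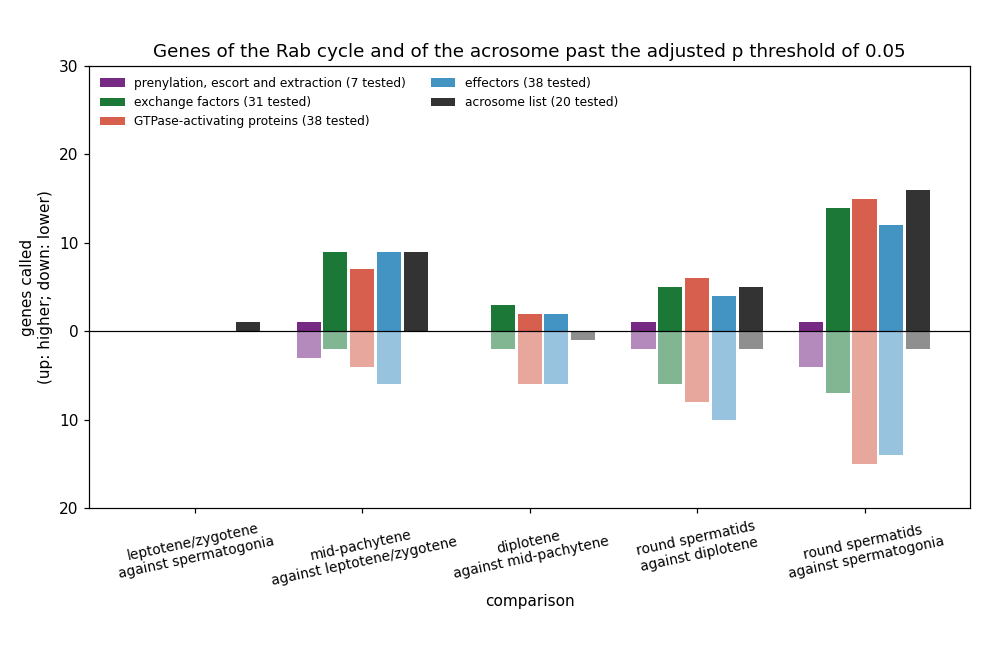
Number of genes (vertical axis, upward for higher and downward, in paler bars, for lower in the fraction named first) that passed the adjusted p threshold in 4 lists of the Rab cycle and in the acrosome list, for 5 comparisons. The acrosome list has 16 genes higher and 2 lower in round spermatids than in spermatogonia. The GTPase-activating proteins have 15 of each there, and of all genes 35.9% were higher and 42.4% lower.

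In the other steps the escort, exchange factor, GTPase-activating protein and effector lists again held both directions wherever several genes were called. Of all genes, 0.937% were higher and 1.0% lower in leptotene/zygotene cells against spermatogonia. The shares higher and lower were 7.11% and 15.3% in diplotene against mid-pachytene cells. They were 13.5% and 14.2% in round spermatids against diplotene cells. Against spermatogonia, leptotene/zygotene cells had 0 called genes in the 4 Rab cycle lists and 1 in the acrosome list, Spink2 (2.35). Diplotene against mid-pachytene cells had 0 called escort genes, 3 exchange factors higher and 2 lower, 2 GTPase-activating proteins higher and 6 lower, and 2 effectors higher and 6 lower, among them Myo5a (-2.90) and Sytl2, a Rab27 effector (2.32). Round spermatids against diplotene cells had 1 escort gene higher and 2 lower, 5 exchange factors higher and 6 lower, 6 GTPase-activating proteins higher and 8 lower, 4 effectors higher and 10 lower, with Rufy1 at 3.39 and Sytl2 at -2.04, and 5 acrosome genes higher and 2 lower.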

How the data were processed

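The authors hybridised pooled RNA of sorted germ cells to Affymetrix arrays and deposited GC-RMA signals as linear intensity values, which were log2-transformed here. Per the labels the tool was GCRMA, without a version. Array annotation gave 34945 of 45037 probe sets a single gene symbol, 932 several and 9160 none. Probe sets with a log2 signal of 5 in at least 2 arrays (22396) were fitted with the 8 fractions as groups in limma 3.58.1 (R 4.3.3), with 12 residual degrees of freedom, two-sided tests and Benjamini-Hochberg adjustment over all of them at 0.05. The number of arrays limits the precision. Array projects came from the study's own array names, matched by equal signals. Scripts were tested on simulated data. Values on every array were given for up to 4 called members with the largest rise and 4 with the largest fall in each comparison, X-linked members, and paralogue pairs in which a gene was called and its partner was not or went the other way. Up to 4 called genes of the largest change were named in each other list. The members, lists and rule were chosen with earlier results of these data known.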

Additional observations from a re-analysis of the deposited data

Results flagged for a closer look

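In groups of 4 arrays, 8 of 92 groups tested had an array whose gap to its nearest neighbour took more of the group's range than Dixon's limit allows, and chance flags about 1 in 20 groups. In round spermatids, replicate 1 stood apart for 3 genes. It was high for Rab3a, at 6.82 against 4.44 to 4.51 on the others (gap over range 0.971), and for Rab9, at 7.24 against 4.76 to 5.13 (0.851), and low for Rab2a, at 11.04 against 11.46 to 11.51 (0.896). Replicate 3 was high for Rab15, at 5.01 (0.982).

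In spermatogonia, replicate 1 was low for Rab4b, at 7.56 (gap over range 0.93), and replicate 2 was low for Rab4a, at 4.05 against 4.70 to 4.81 (0.85). Replicate 3 was high for Rab8a, at 8.61 (0.86), and replicate 4 was high for Rab5c, at 11.32 against 10.44 to 10.59 (0.832).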

How the results depend on the processing

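Of 53 changes of named Rab genes, 32 kept their side of the threshold under every alternative run. Of 911 alternative values, 62 lost the call, 11 gained it and 0 changed direction with a call in either run. Changes of sign between runs without a call were not counted, and small uncalled changes such as that of Rab1b could change sign. The calls between round spermatids and spermatogonia numbered 32 to 40, and those of any difference among fractions 33 to 40. Leaving out single arrays gave 0 to 2 members in leptotene/zygotene cells against spermatogonia, 8 to 17 in mid-pachytene against leptotene/zygotene cells, 6 to 9 in diplotene against mid-pachytene cells and 2 to 9 in round spermatids against diplotene cells. With only the arrays compared, the last 3 comparisons gave 9, 1 and 5. With array project as a random block, mid-pachytene against leptotene/zygotene cells gave 22 (17 lower), diplotene against mid-pachytene cells 15, round spermatids against diplotene cells 14 and round spermatids against spermatogonia 37. As a fixed block, chosen after seeing the data, it gave 21, 16, 14 and 35. With the replicate number as a block round spermatids against diplotene cells gave 15, round spermatids against spermatogonia 37 and leptotene/zygotene cells against spermatogonia 2. Nothing in the labels ties same-numbered arrays beyond the number. Deviations of 33 of 37 same-numbered pairs correlated above 0.1 (lowest -0.17), 14 of 18 arrays were most like 1 of their own number, and 21 of 21 same-project pairs correlated above 0.1 (lowest 0.12, median 0.44). Levels under 5 limit Rab33a and Rab3d, among others. With values under 5 set to 5, 14 of the 17 members called in mid-pachytene against leptotene/zygotene cells were still called.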
